A study of Mus musculus with 6 samples.

Results

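The genes described here are 32 marker genes of the main cell classes of brain tissue, 14 of neurons, 8 of astrocytes and 10 of oligodendrocytes, among the 25206 genes of an expression array study of the choroid plexus. They were chosen by symbol, as a measure of adjoining brain tissue in the dissected plexus, and each had 1 probe set. The arrays were hybridised with RNA of the choroid plexus of aged C57BL/6J mice of 20 to 22 months (n = 3) and young C57BL/6J mice of 2 to 3 months (n = 3). Each array has its own mouse in the labels, which give neither the sex of the mice nor the ventricle from which the tissue came. All values are log2 expression after RMA, so a step of 1 stands for a doubling, and differences are aged minus young.

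The choroid plexus is the secretory tissue of the brain ventricles and joins the ventricle wall along a thin stalk, so that dissection can carry some of that wall along. Neurons are known by the proteins of synaptic vesicles, axonal filaments and transmitter synthesis. Astrocytes carry the filament protein Gfap, the water channel Aqp4 and the gap junction protein Gja1, and oligodendrocytes wrap axons in myelin. Some of the genes are also known outside the brain parenchyma, among them Gja1 and Cldn11 in meningeal fibroblasts and Mal in epithelia.

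No member passed the test between aged and young mice, and the members varied far more between single mice. Neuronal and several astrocytic genes were highest in aged replicate 1, myelin genes were highest in young replicate 3, and genes of all 3 classes were lowest in aged replicate 2. Of the 32 members 0 were called (limma, Benjamini-Hochberg adjusted p under 0.05 over all genes, lowest adjusted p = 0.616), where 0.0793% of all genes were called, 0.0595% as higher and 0.0198% as lower in aged mice. Without adjustment 2 of 32 members had a p under 0.05, where 7.77% of all genes had one. Of these 1 was higher in the aged tissue, where 3.82% of all genes were, and 1 was lower, where 3.96% were. For 31 of the 32 members the range among the 3 aged arrays was wider than the difference between the group means. The same held for 81.8% of all genes.

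The spread itself set the members apart from most genes in size. Over the 6 arrays the members had a median range of 1.97, against 0.47 for all genes, and 25 members spanned 1 or more, as did 8.34% of all genes. Residual SDs within the groups had a median of 0.74 for the members and 0.17 for all genes, and 25 members lay in the highest 5% of all genes. The aged SD exceeded the young SD for 25 members, where 51.8% of all genes had it so. These values describe the members and were not tested. In bulk tissue, fewer cells of a type and less RNA per cell cannot be told apart.

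**Figure D1:**
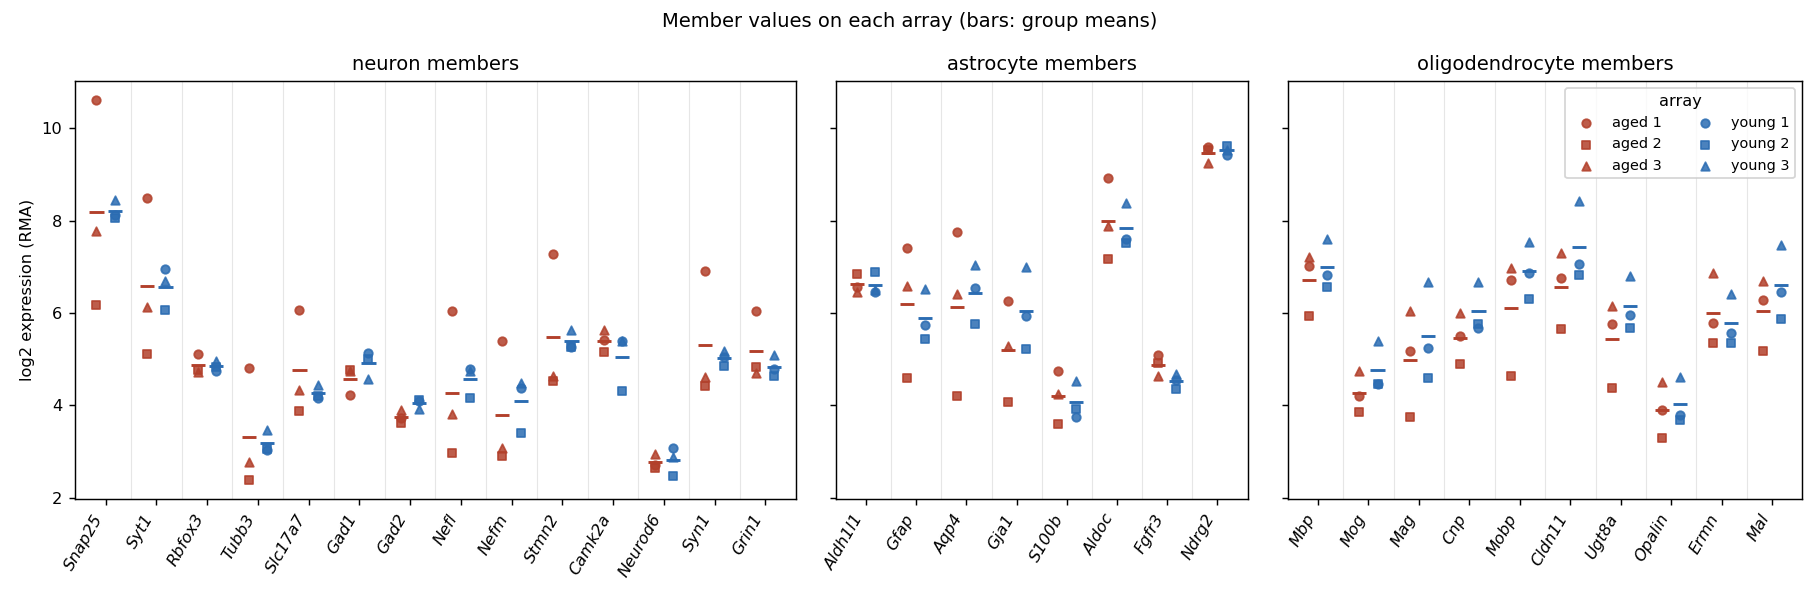
Log2 expression of each of the 32 members on the 3 aged arrays (red, left of each pair) and the 3 young arrays (blue, right), with marker shapes for replicates 1, 2 and 3 and bars for group means. Aged replicate 1 (red circle) lies far above the other arrays for Snap25, Syt1 and Stmn2, and young replicate 3 (blue triangle) lies highest for most myelin genes.

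The myelin genes are taken first, since 9 of the 10 oligodendrocyte members shared both their highest and their lowest array. The sequence next to their start sites is given as description, and a link between motifs and array order was not tested. The windows cover 250 bases before to 50 bases after a gene's start, from RefSeq in build GRCm38.p6, and 25 of the 32 members had at least 1. Capitals mark ACAAAG, the core bound by SOX factors such as Sox10, and CTGGNAC, each on either strand and without overlap between them. CTGGNAC, with any base at N, was searched as a loose form of the motif of the myelin regulator Myrf. A match to it need not match a stricter form. Windows of Cnp, Mag and Opalin held both motifs, and that of Mobp held ACAAAG 6 times. Those of Cldn11, Ugt8a, Mal and Ermn held neither.
Cnp promoter, chr11:100574689-100574988, plus strand: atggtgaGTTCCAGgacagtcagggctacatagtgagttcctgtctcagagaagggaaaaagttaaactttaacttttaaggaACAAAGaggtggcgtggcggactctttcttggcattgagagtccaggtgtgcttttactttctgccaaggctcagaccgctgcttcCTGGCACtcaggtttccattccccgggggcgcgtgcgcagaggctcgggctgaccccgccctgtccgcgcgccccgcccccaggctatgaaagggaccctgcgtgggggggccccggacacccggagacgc
Mag promoter, chr7:30914814-30915113, minus strand: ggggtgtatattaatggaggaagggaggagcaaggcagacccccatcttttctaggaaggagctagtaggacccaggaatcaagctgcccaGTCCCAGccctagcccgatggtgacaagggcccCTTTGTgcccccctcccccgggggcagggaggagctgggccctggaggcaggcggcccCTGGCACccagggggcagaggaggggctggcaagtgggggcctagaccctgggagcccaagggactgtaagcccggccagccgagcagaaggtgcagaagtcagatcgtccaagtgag
Opalin promoter, chr19:41077064-41077363, minus strand: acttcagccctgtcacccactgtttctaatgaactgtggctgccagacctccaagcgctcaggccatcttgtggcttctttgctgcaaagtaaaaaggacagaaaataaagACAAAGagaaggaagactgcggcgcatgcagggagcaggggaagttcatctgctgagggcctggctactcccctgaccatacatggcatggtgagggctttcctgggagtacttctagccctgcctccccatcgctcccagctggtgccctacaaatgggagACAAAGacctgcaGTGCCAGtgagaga
Mobp promoter, chr9:120149492-120149791, plus strand: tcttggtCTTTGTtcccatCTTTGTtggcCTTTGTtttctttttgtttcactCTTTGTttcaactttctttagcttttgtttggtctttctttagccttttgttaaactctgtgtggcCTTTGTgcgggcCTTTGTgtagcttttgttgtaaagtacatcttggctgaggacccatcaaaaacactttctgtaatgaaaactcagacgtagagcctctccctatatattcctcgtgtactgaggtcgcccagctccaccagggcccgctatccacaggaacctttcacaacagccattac

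Of 9 oligodendrocyte members with a window, 4 held ACAAAG (44.4%), against 3 of 9 neuronal members (33.3%), 0 of 7 astrocytic members and 21.0% of all genes in the table. CTGGNAC was in windows of 4 of the 9 oligodendrocyte members (44.4%), 2 of 9 neuronal members (22.2%), 1 of 7 astrocytic members (14.3%) and 21.4% of all genes. TATAAA, the TATA box, was in none of the 9 oligodendrocyte members' windows and in those of 15.7% of all genes. A match is a run of letters and does not show binding.

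Among the oligodendrocyte members, all 10 were above their own mean over the arrays in young replicate 3 and in aged replicate 3, and all 10 were below it in aged replicate 2. Their median deviation from that mean was -0.07, -1.03 and 0.37 in aged replicates 1, 2 and 3, and -0.02, -0.23 and 0.97 in young replicates 1, 2 and 3. Young replicate 3 held the highest value of 9 members, and aged replicate 2 the lowest value of the same 9. Over all genes 12.7% were highest in young replicate 3 and 19.9% were lowest in aged replicate 2. Of the 2102 genes that spanned 1 or more, 19.2% and 32.2% were.

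Proteins of the myelin sheath come first. Mag, an adhesion protein at the inner face of myelin, was at 5.18, 3.74 and 6.04 in aged replicates 1, 2 and 3, and at 5.24, 4.59 and 6.66 in young replicates 1, 2 and 3. Young replicate 3 thus stood 7.55-fold above aged replicate 2. The groups overlapped, and the difference of -0.51 had a 95% interval of -2.02 to 1.00 (limma adjusted p = 0.890). Mobp, a basic protein of compact myelin, was at 6.71, 4.64 and 6.97 in aged mice and at 6.86, 6.31 and 7.53 in young mice. Again 1 aged array lay apart, with the other 2 within the range of the young arrays (difference -0.79, SE 0.59, limma adjusted p = 0.792).

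Mbp, the main basic protein of myelin, was at 7.01, 5.93 and 7.22 in aged mice and at 6.81, 6.55 and 7.61 in young mice, so the groups overlapped (difference -0.27, limma adjusted p = 0.903). Cldn11, the claudin of myelin tight junctions, was at 6.76, 5.64 and 7.29 in aged mice and at 7.05, 6.83 and 8.42 in young mice. Its value in young replicate 3 was the highest of any oligodendrocyte member on any array, and its difference of -0.87 was the most negative of the 32 members (SE 0.50, limma adjusted p = 0.740). Mog, a surface protein of the outermost myelin layer, was at 4.19, 3.85 and 4.73 in aged mice and at 4.47, 4.45 and 5.38 in young mice. Cnp, a phosphodiesterase of uncompacted myelin, was at 5.49, 4.90 and 5.99 in aged mice and at 5.67, 5.76 and 6.66 in young mice. Both had the array order of the class at its ends, with young replicate 3 highest and aged replicate 2 lowest.

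Ugt8a, which makes the myelin lipid galactosylceramide, was at 5.75, 4.38 and 6.14 in aged mice and at 5.96, 5.68 and 6.80 in young mice. Mal, a proteolipid of myelin and of epithelia, was at 6.27, 5.17 and 6.68 in aged mice and at 6.45, 5.87 and 7.46 in young mice. Opalin, a membrane protein of mature oligodendrocytes, was at 3.89, 3.28 and 4.51 in aged mice and at 3.78, 3.68 and 4.62 in young mice. These 3 genes also followed the class, and Opalin differed by -0.14 with age. Ermn, a cytoskeletal protein of late oligodendrocytes, was the exception at both ends. It was at 5.79, 5.34 and 6.86 in aged mice and at 5.57, 5.34 and 6.41 in young mice, and it was the only oligodendrocyte member with a positive difference (0.22, SE 0.41, limma adjusted p = 0.927).

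As a class the oligodendrocyte members had a median difference of -0.53, against 0.00 for all genes, and 9 of 10 differences were negative. None was called, none had an unadjusted p under 0.05, and none had groups that did not overlap. Without young replicate 3 the class median was -0.16, and again no member was called, where 0.0357% of all genes were. The class mean differed by -0.47 with all arrays, by -0.1 without young replicate 3 and by -0.04 without aged replicate 2. The 95% interval reached from -2.04 to 0.29 for Cldn11 and from -2.16 to 0.57 for Mobp.

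Among the neuronal members 10 of 14 had their highest value in aged replicate 1, where 11.3% of all genes had theirs, and 20.9% of the genes that spanned 1 or more. Aged replicate 2 held the lowest value of 9 of them. The class median deviation was 1.50, -0.70 and -0.36 in aged replicates 1, 2 and 3, and 0.05, -0.29 and 0.11 in young replicates 1, 2 and 3. The 2 ends of the neuronal range were thus both aged mice, and the young mice lay between them.

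Genes of vesicle release come first. Snap25, the membrane protein that drives vesicle fusion, was at 10.61, 6.16 and 7.78 in aged mice and at 8.11, 8.05 and 8.44 in young mice. Aged replicate 1 stood 21.8-fold above aged replicate 2, while the young mice lay between 8.05 and 8.44. The group means were 8.18 ± 2.25 in aged and 8.20 ± 0.21 in young mice (SD, n = 3 each). The difference of -0.02 had a 95% interval of -2.18 to 2.14, so it does not show that the groups were alike (limma adjusted p = 0.997). Syt1, the calcium sensor of release, was at 8.49, 5.11 and 6.13 in aged mice and at 6.94, 6.07 and 6.68 in young mice. Syn1, which tethers vesicles, was at 6.90, 4.41 and 4.62 in aged mice and at 5.04, 4.85 and 5.18 in young mice. In both genes aged replicate 1 lay above all young arrays. Below all young arrays lay aged replicate 2 for Syt1, and aged replicates 2 and 3 for Syn1.

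Cytoskeletal genes of axons followed the same arrays. Nefl, the light neurofilament chain, was at 6.04, 2.96 and 3.82 in aged mice and at 4.79, 4.15 and 4.74 in young mice. Nefm, the medium chain, was at 5.40, 2.91 and 3.07 in aged mice and at 4.38, 3.40 and 4.49 in young mice. Stmn2, a microtubule regulator of growing axons, was at 7.28, 4.52 and 4.63 in aged mice and at 5.27, 5.25 and 5.63 in young mice. Without aged replicate 1, the aged arrays of all 3 genes lay below every young array. Tubb3, the neuronal tubulin, was at 4.80, 2.38 and 2.78 in aged mice and at 3.03, 3.06 and 3.47 in young mice. Its mean lay under 3.46, the level that only the brightest 5% of olfactory and vomeronasal receptor genes passed, used here as a guide to background.

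Genes of transmitter use did not all move together. Slc17a7, which loads glutamate into vesicles, was at 6.07, 3.88 and 4.32 in aged mice and at 4.16, 4.20 and 4.43 in young mice, with aged replicate 1 highest. Grin1, a subunit of glutamate receptors, was at 6.04, 4.82 and 4.69 in aged mice and at 4.79, 4.64 and 5.08 in young mice, again with that array highest. Gad1, an enzyme of GABA synthesis, was at 4.22, 4.76 and 4.75 in aged mice and at 5.14, 5.0 and 4.57 in young mice. It was thus lowest in the array where the vesicle genes were highest. Gad2, the other GABA-making enzyme, was at 3.72, 3.61 and 3.90 in aged mice and at 4.09, 4.12 and 3.91 in young mice. It was the only member whose groups did not overlap, where 6.93% of all genes were lower and 6.69% higher without overlap. Its difference of -0.30 (SE 0.12) had an unadjusted limma p of 0.0418 and did not pass (adjusted p = 0.616).

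The rest of the neuronal members carried little of the pattern. Rbfox3, the nuclear protein known as NeuN, stayed between 4.71 and 5.11 in aged mice and between 4.75 and 4.96 in young mice. Neurod6, a factor of cortical and hippocampal excitatory neurons, lay between 2.64 and 2.95 in aged mice and between 2.47 and 3.07 in young mice, under the guide to background. Camk2a, a kinase of excitatory synapses, was at 5.42, 5.16 and 5.62 in aged mice and at 5.40, 4.31 and 5.40 in young mice, so a single young array stood low. Rbfox3 was highest in aged replicate 1 too, but spanned little, and the other 2 genes had their highest value elsewhere.

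**Figure D2:**
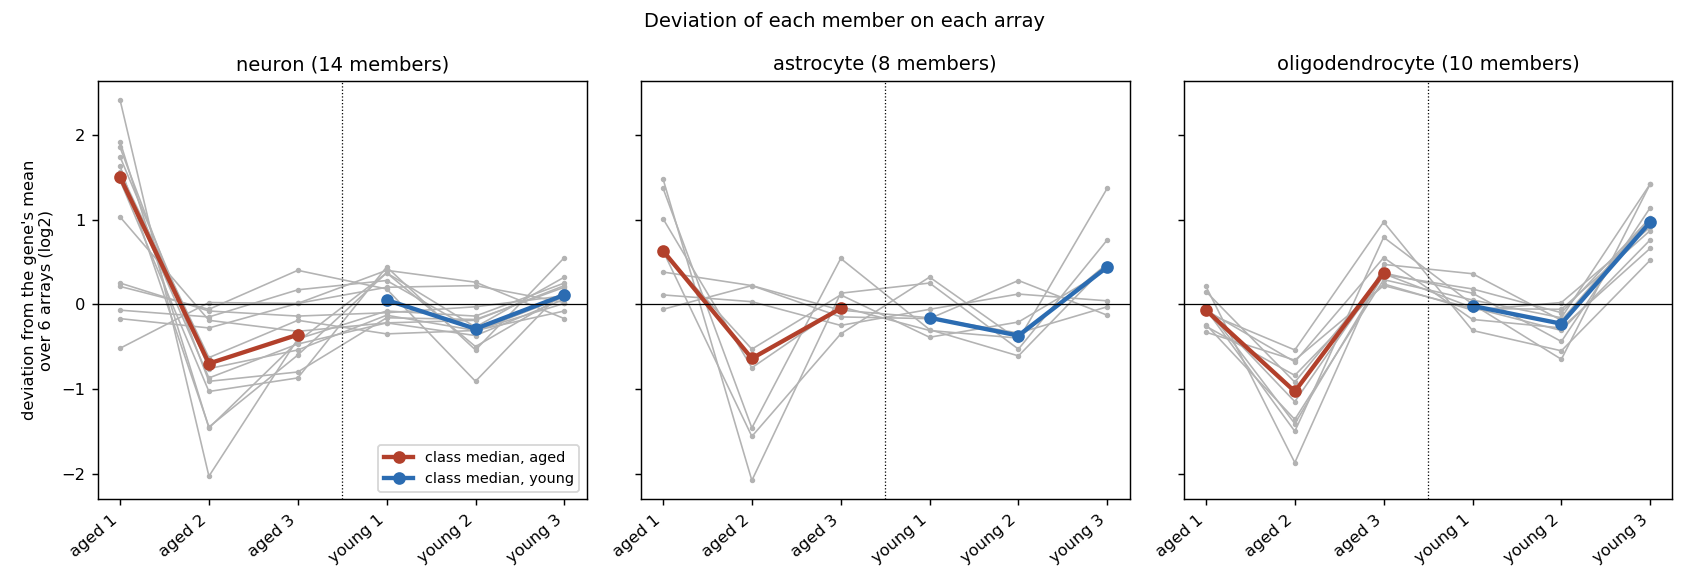
Deviation of each member from its own mean over the 6 arrays (log2), by class, with aged arrays left of the dotted line and young arrays right of it. Grey lines join the values of 1 gene, coloured lines give the class median, and replicates have no order. The neuronal median is 1.50 in aged replicate 1 and the oligodendrocyte median is 0.97 in young replicate 3, while aged replicate 2 is lowest in every panel.

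The neuronal difference was near 0 and moved with single arrays. The class mean differed by 0.04 with all arrays, by -0.49 without aged replicate 1, by 0.40 without aged replicate 2 and by -0.08 without young replicate 2. With all arrays the class median was 0.01, with 8 positive and 6 negative differences. Without aged replicate 1 the class median was -0.40, and 7 of 14 members were lower at an unadjusted limma p under 0.05, where 4.22% of all genes were. The lowest adjusted p was then 0.161, that of Stmn2 (difference -0.81, SE 0.16), so 0 members were called, where 0.206% of all genes were. Also without that array 7 of 14 members had aged values that all lay below the young ones, where 11.9% of all genes did. Nefl then differed by -1.17, Snap25 by -1.23 and Nefm by -1.10. These values rest on 2 aged mice. The array left out was the one where most of these members were highest, so their aged means fall by construction. The shares of all genes carry no such choice. Without aged replicate 2 the lowest unadjusted limma p of a neuronal member was 0.08, that of Slc17a7 (difference 0.93).

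The astrocyte members split into genes that varied between mice and genes that did not. Aged replicate 1 held the highest value of 5 of 8, namely Gfap, Aqp4, S100b, Aldoc and Fgfr3, and aged replicate 2 the lowest value of 5, with Gja1 in the place of Fgfr3. The median deviation was 0.63, -0.64 and -0.05 in aged replicates 1, 2 and 3, and -0.16, -0.37 and 0.44 in young replicates 1, 2 and 3. Young replicate 3 was thus raised for astrocytic as well as for myelin genes, and aged replicate 1 for astrocytic as well as for neuronal genes.

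Aqp4, the water channel of astrocyte endfeet, was at 7.76, 4.20 and 6.41 in aged mice and at 6.53, 5.75 and 7.04 in young mice. Gfap, the filament protein that reactive astrocytes make in quantity, was at 7.41, 4.58 and 6.58 in aged mice and at 5.74, 5.43 and 6.51 in young mice. In both genes the aged values enclosed all young ones. For Gfap the difference of 0.30 had a 95% interval from -1.20 up to 1.80, and limma gave an adjusted p of 0.942. For Aqp4 the difference of -0.32 had one from -2.15 up to 1.51, and limma gave an adjusted p of 0.951. Gja1 was at 6.26, 4.07 and 5.28 in aged mice and at 5.94, 5.21 and 7.0 in young mice, with young replicate 3 highest, as in the myelin genes (difference -0.85, SE 0.59, limma adjusted p = 0.782).

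Aldoc, the aldolase of astrocytes and some neurons, was at 8.93, 7.16 and 7.89 in aged mice and at 7.61, 7.52 and 8.39 in young mice. S100b, a calcium-binding protein, was at 4.74, 3.60 and 4.24 in aged mice and at 3.74, 3.92 and 4.53 in young mice. Both had aged replicate 1 highest and young replicate 3 highest among the young. Fgfr3, a growth factor receptor, was at 5.08, 4.92 and 4.63 in aged mice and at 4.54, 4.36 and 4.67 in young mice. It was higher in aged mice with an unadjusted limma p of 0.0476 for a difference of 0.35 (SE 0.15). It did not pass (limma adjusted p = 0.634), and its groups overlapped. Aldh1l1, a folate enzyme, lay between 6.46 and 6.84 in aged mice and between 6.45 and 6.89 in young mice. Ndrg2, which is enriched in astrocytes, lay between 9.24 and 9.60 in aged mice and between 9.43 and 9.61 in young mice. Both genes kept their level in aged replicate 2, where Aqp4 and Gfap were lowest.

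**Figure D3:**
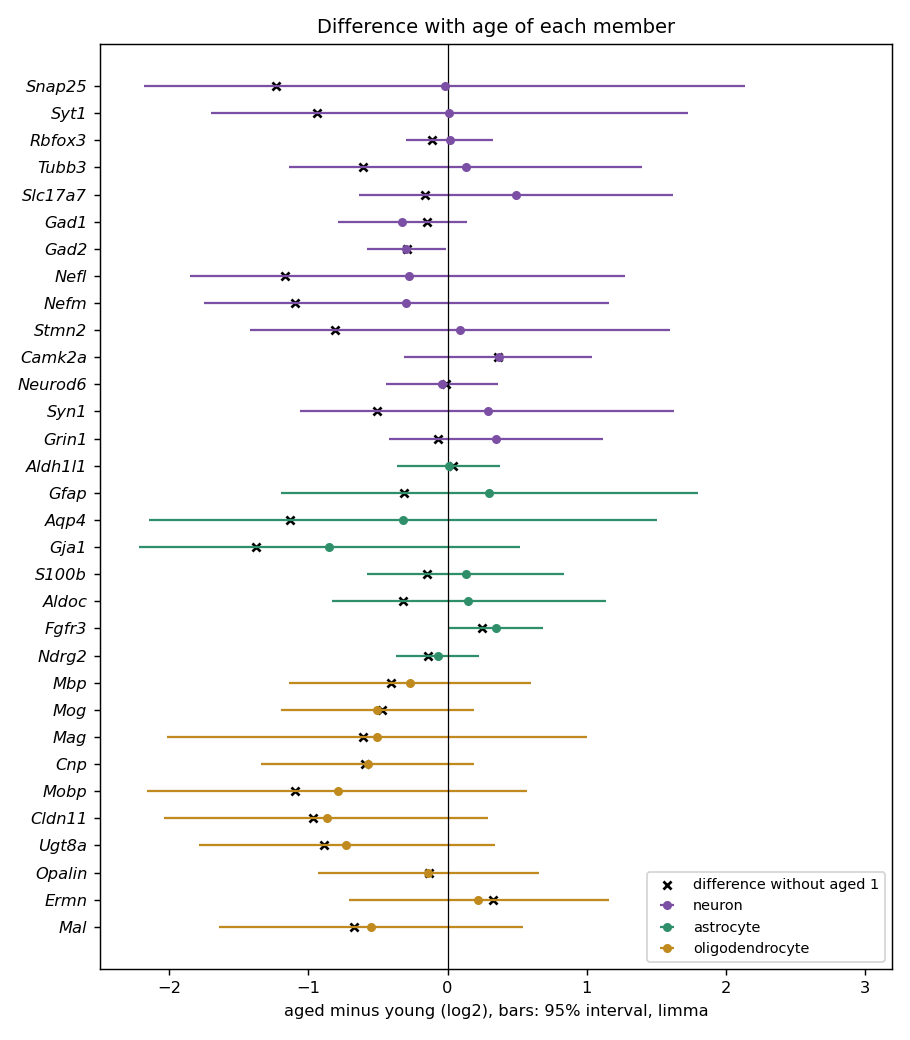
Difference of each member, aged minus young (log2), with its 95% interval from limma over all 6 arrays, coloured by class. Crosses give the difference without aged replicate 1, which lies at -1.23 for Snap25 and -1.17 for Nefl but hardly moves for Gad2, Mog and Opalin.

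Further genes of each class are given by their highest and lowest array. Of 30 further neuronal genes 23 were highest in aged replicate 1 and 20 lowest in aged replicate 2. Vsnl1, a neuronal calcium sensor, was at 9.21, 5.73 and 6.74 in aged mice and at 7.72, 7.17 and 7.69 in young mice. Slc17a6, the vesicular glutamate transporter of thalamus and brainstem, was at 6.26, 2.73 and 3.39 in aged mice and at 4.35, 3.79 and 3.66 in young mice. Slc32a1, the vesicular transporter of GABA, was at 3.26, 3.74 and 3.42 in aged mice and at 3.40, 3.89 and 3.68 in young mice, lowest in aged replicate 1, as was Gad1. By limma 0 of the 30 were called (lowest adjusted p = 0.634). Only 1 of them, Bsn, had an unadjusted limma p under 0.05, higher in aged mice, where 3.82% of all genes were. The median difference was 0.15.

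Of 20 further astrocytic genes 13 were highest in aged replicate 1 and 12 lowest in aged replicate 2. Slc1a2, the main glutamate uptake carrier, was at 6.46, 3.89 and 5.55 in aged mice and at 5.57, 4.76 and 5.91 in young mice. Fabp7, a lipid carrier of radial glia and astrocytes, was at 7.97, 4.22 and 5.48 in aged mice and at 6.83, 5.94 and 7.42 in young mice. In both genes aged replicate 1 was the highest of the 6 arrays and aged replicate 2 the lowest. None of the 20 was called or had an unadjusted limma p under 0.05, where 7.77% of all genes had one (lowest adjusted p = 0.702, median difference -0.02).

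Of 25 further oligodendrocyte genes 18 were highest in young replicate 3 and 14 lowest in aged replicate 2. Aspa, which releases acetate for myelin lipids, was at 4.39, 3.33 and 4.50 in aged mice and at 4.73, 4.48 and 5.41 in young mice. Myrf, the transcription factor of myelin genes, had another array order. It was at 5.53, 6.29 and 6.19 in aged mice and at 5.04, 4.44 and 5.36 in young mice, highest where the myelin genes were lowest. Its difference of 1.06 (SE 0.28) had an unadjusted limma p of 0.00505 and did not pass (adjusted p = 0.398). Its groups did not overlap, where 6.69% of all genes were higher without overlap. None of the 25 was called. Myrf and Aspa alone had an unadjusted limma p under 0.05, a share near the 7.77% of all genes that had one. The median difference was -0.13.

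Oligodendrocyte precursor genes had a range of the list mean of 0.42 over the 6 arrays, against 0.85 for the 25 further oligodendrocyte genes and 2.07 for the oligodendrocyte members. Schwann cell genes had a range of the list mean of 0.25, and 4 of 10 lay under the guide to background. Within that list Pmp22, a myelin protein also made by other cells, was at 6.68, 5.29 and 6.21 in aged mice and at 6.75, 6.31 and 7.47 in young mice, with the highest and lowest array of the myelin genes.

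The genes nearest to each class mean, by the root mean square difference of centred values over the 6 arrays, were sought among 2076 further genes that spanned 1 or more. For the neuronal mean they were E030003E18Rik, Camta1, Lsamp, Reps2 and Rbfox1, at 0.05 to 0.09 log2 units. Lsamp, an adhesion protein of neurons, was at 6.37, 4.67 and 5.01 in aged mice and at 5.57, 4.98 and 5.50 in young mice. For the astrocytic mean they were Cadm3, Ttyh1, Prkce, Igsf11 and Elmo1, at 0.03 to 0.11. The oligodendrocyte mean had less close neighbours, Tmeff2, Gpr37, Nkain2, Aspa and Srgn, at 0.17 to 0.24. Of these 15 genes none had an adjusted limma p under 0.639 with age. Their choice by closeness to a class mean largely fixed this in advance, so it is no result about further genes.

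Markers of other cell types moved with some of the same arrays. The choroid plexus epithelium list, with Ttr and Kl, had means of 10.99, 11 and 10.98 in aged mice and 10.80, 11.06 and 10.97 in young mice. These genes were high on every array. Ttr, the thyroid hormone carrier of the plexus, was at 13.29, 13.31 and 13.31 in aged mice and at 12.13, 13.32 and 13.29 in young mice. Young replicate 1 thus stood low for Ttr, and also for Enpp2, at 12.08 there and 13.01 to 13.04 on the other arrays. The list mean was lowest in that array too, but by less, at 10.80 against 10.97 to 11.06 elsewhere. Ependymal genes, which line the ventricle wall, had list means of 6.12 to 6.34 in aged mice and 6.23 to 6.39 in young mice. Foxj1 and other cilia genes of that list are also active in the plexus epithelium.

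Young replicate 3, where myelin genes were highest, also stood apart for stromal and meningeal fibroblast markers. Their list mean was 5.63, 5.07 and 5.31 in aged mice and 5.48, 5.67 and 6.78 in young mice, and 8 of 10 were highest in that array. Slc22a6, a carrier of meningeal fibroblasts, was at 6.19 there and between 3.80 and 4.23 on all other arrays. Of 12 cerebellar genes 9 were highest in the same array. Cbln1, of cerebellar granule cells, was at 2.71, 2.70 and 2.27 in aged mice and at 2.74, 2.72 and 3.59 in young mice, with its mean under the guide to background. The part of these markers in the myelin values was not tested.

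Aged replicate 1, where neuronal genes were highest, held the highest value of 7 of 12 genes of thalamus and habenula, and their part in the neuronal values was not tested. Ntng1, an axon guidance protein of thalamic neurons, was at 6.05, 2.43 and 2.51 in aged mice and at 4.13, 2.62 and 3.21 in young mice. Prox1, a factor of dentate granule cells and of some thalamic neurons, belongs to the list of cortex and hippocampus. It was at 4.84 in aged replicate 1 and between 2.56 and 3.08 elsewhere, with its mean under the guide to background. The rest of that list did not follow it, since 3 of its 12 genes were highest in that array, with a median deviation of -0.03 there. Means under the guide to background were found for 6 of 12 genes of cortex and hippocampus, 6 of 12 of the striatum, 5 of 12 of the cerebellum, 5 of 12 of thalamus and habenula and 11 of 12 of the hindbrain, so the levels of these lists say little. In the neuroblast list 8 of 10 means lay under it, and in the pineal gland list 7 of 10. Several genes of the region lists are also active in the plexus itself, so the lists describe arrays and not places.

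The list means of microglial, macrophage and endothelial genes spanned 0.40, 0.68 and 0.90, against 1.76, 1.43 and 2.07 for the neuronal, astrocytic and oligodendrocyte members. That of the stromal fibroblast genes spanned 1.71, more than the astrocytic members, so a wide span was not particular to the brain classes. Microglial genes had list means of 4.79, 4.65 and 4.94 in aged mice and 4.53, 4.70 and 4.83 in young mice, and P2ry12, a purine receptor of microglia, was at 4.27, 4.10 and 4.30 in aged mice and at 4.02, 4.17 and 4.55 in young mice. Macrophage genes had list means of 4.40 to 4.91 in aged mice and 4.23 to 4.58 in young mice, with aged replicate 3 highest. Endothelial genes had list means of 4.67 to 4.77 in aged mice and 5.04 to 5.57 in young mice, without overlap. Of the 10 endothelial genes 7 were lowest in aged replicate 2 and 5 highest in young replicate 3, the arrays at the ends of the myelin genes, and their part in each other's values was not tested. Over all 240 genes of these 18 lists limma called 0. At an unadjusted limma p under 0.05, 8 of 10 endothelial and 5 of 10 fibroblast genes were lower in aged mice, and 0 were higher. Of 10 macrophage genes 4 were higher and 3 lower, and of 10 microglial genes 3 were higher and 0 lower. Over all genes 3.82% were higher and 3.96% lower. Groups did not overlap for 8 endothelial and 4 fibroblast genes, all lower, where 6.93% of all genes were. Aged replicates 1 and 2 had endothelial means of 4.77 and 4.68, while their neuronal means were 5.91 and 4.15.

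**Figure D4:**
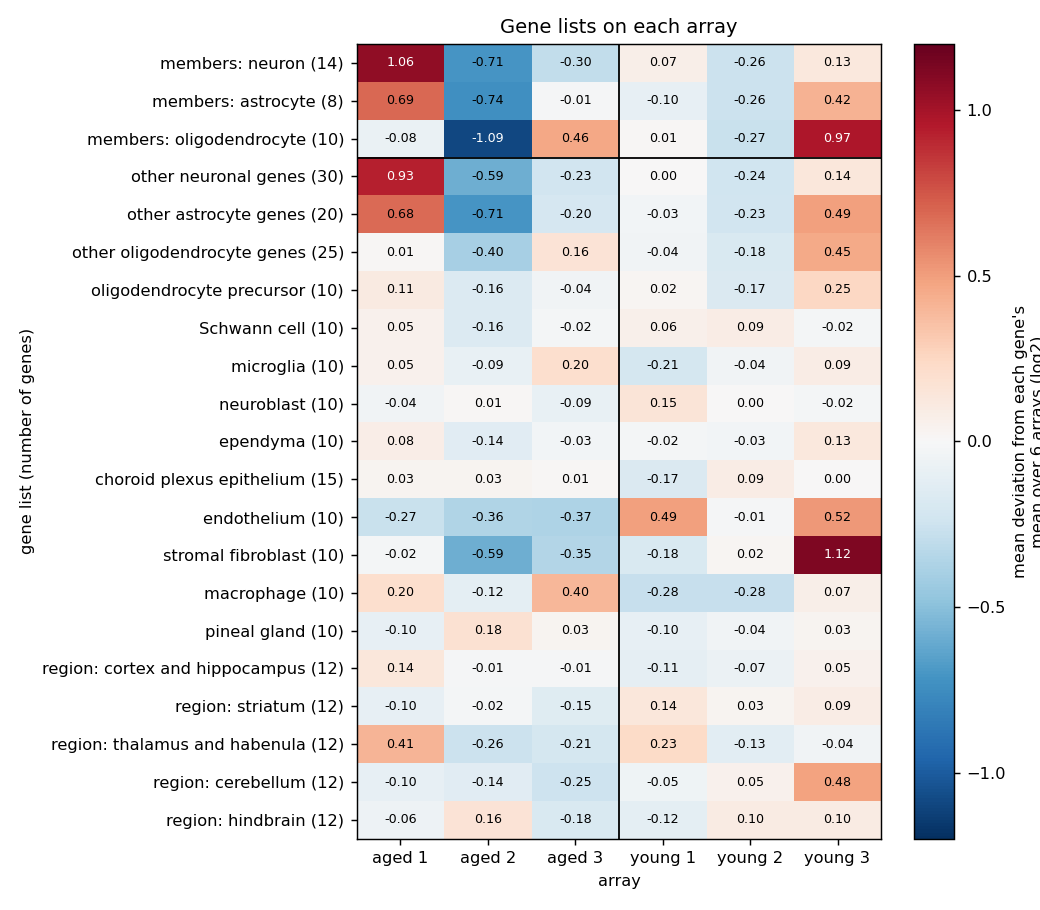
Mean deviation of the genes of each list from their own mean over the 6 arrays (log2), with aged arrays left and young arrays right of the line. The neuronal and astrocytic rows are highest in aged replicate 1 (1.06 and 0.69), and the oligodendrocyte and fibroblast rows are highest in young replicate 3 (0.97 and 1.12). The row of the plexus epithelium stays between -0.17 and 0.09.

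Beside the members, 15 genes were higher and 5 lower with age among all 25206. With the mean of the neuronal members as a covariate, an alternative chosen after the data were examined, the counts were 21 and 16, and all 20 genes were among them. With the mean of the oligodendrocyte members as a covariate the counts were 13 and 1, with 10 of the 20 among them. Either covariate costs a degree of freedom. In the authors' deposited table the lowest q-value of any member was 0.616 over all genes, for Gad2, which had none in the authors' filtered subset. Over that subset it was 0.471, for Fgfr3. The authors' p-values differed from the limma p-values given here by at most 4.8e-13, so they are the same result and not a second one.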

How the data were processed

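The study measured RNA of 6 choroid plexus samples on expression arrays, 3 per age group. The deposited log2 expression values are per Brainarray probe set, 1 for each Entrez gene, per the file headers, and the submitters' processing notes name RMA and limma 3.14.4. The deposited score columns (signed fold and t), p-values and q-values belong to the authors' comparison of the age groups, per the file headers. The array model is not given in the sources used here. A second deposited table holds the same log2 values with a largest difference of 0.005. Per-sample columns were matched to samples by title and by the number in each description, and 0 were left aside.

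Names were updated by Entrez identifier to the RefSeq table of GRCm38.p6 (23740 of 25206 matched). All probe sets were fitted with limma 3.58.1 in R 4.3.3 (lmFit, eBayes, 1 term for age), with Benjamini-Hochberg adjustment over all of them and no filter. Intervals are at 95%. The fit was tested on simulated data, with 200 changed genes drawn from all probe sets. It recovered 0% of them at a log2 difference of 0.5, 61.7% at 1 and 93.8% at 2. The median residual SD was 0.17 for all genes and 0.74 for the members, so these shares do not hold for the members. Members, lists and motifs were chosen with earlier results of these data known. All members are named. The rule for other genes takes, in each list, the called genes or the 3 with the smallest p, those with the highest mean, and the 5 nearest to a class mean, and not every gene so taken is printed. The rest, such as Vsnl1, Slc17a6, Slc32a1, Slc1a2, Fabp7, Slc22a6, Pmp22, Enpp2, Cbln1, Ntng1, Prox1 and P2ry12, were chosen after their values were seen. The guide to background is the 95th percentile of the means of 1350 olfactory and vomeronasal receptor probe sets, 3.46, chosen after the data were examined. No detection calls were used. Array medians lay between 4.03 and 4.09, correlations between arrays ran from 0.982 to 0.990, and no arrays were identical. The number of arrays limits the precision.

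Alternatives were the rounded table, quantile normalization once more, median centring, leaving out each array, a block for the replicate number, weighting of arrays, robust eBayes with a trend, removal of dim probe sets, and a class mean as a covariate.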

Additional observations from a re-analysis of the deposited data

How the results depend on the processing

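No tested member and no tested gene of the other lists was called under the rounded table, the normalizations, the filter, the variance trend, array weights, the replicate block or without 1 array (limma adjusted p). The filter left 4 members untested, and the covariates were run for counts over all genes alone. Leaving out each array in turn turned the sign of 21 members, with differences of -1.23 to 0.99 for Snap25, -0.94 to 0.75 for Syt1, -0.11 to 0.09 for Rbfox3, -0.61 to 0.60 for Tubb3, -0.16 to 0.93 for Slc17a7, -1.17 to 0.37 for Nefl and -1.10 to 0.14 for Nefm. The same ranges were -0.81 to 0.57 for Stmn2, -0.21 to 0.10 for Neurod6, -0.51 to 0.74 for Syn1, -0.07 to 0.60 for Grin1, -0.10 to 0.15 for Aldh1l1, -0.31 to 1.10 for Gfap and -1.13 to 0.65 for Aqp4. For the rest of those 21 they were -0.15 to 0.43 for S100b, -0.32 to 0.57 for Aldoc, -0.14 to 0.04 for Ndrg2, -0.52 to 0.12 for Mbp, -1.04 to 0.11 for Mag, -0.44 to 0.17 for Opalin and -0.21 to 0.55 for Ermn. The other 11 members kept their sign in each of these settings in which they had a value, though Camk2a was at 0.00 without young replicate 2, and none of the 21 had an all-array difference over 0.51 in size. With array weights Snap25 was at 0.54, Nefl at 0.14, Nefm at 0.08, Aldh1l1 at -0.04 and Aqp4 at 0.16, each against the sign without weights. The weighted fit compares weighted group means. The weight of aged replicate 1 was the largest, 1.42, and that of aged replicate 2 the smallest, 0.68. What gave the arrays these weights was not tested. Leaving out 1 array, the class mean difference ranged from -0.49 to 0.40 for neurons, -0.39 to 0.32 for astrocytes and -0.82 to -0.04 for oligodendrocytes. Over all genes the counts of higher calls ranged from 0 to 27 and of lower calls from 0 to 25 without 1 array. Both were 0 without aged replicate 2 or young replicate 2, 27 and 25 without aged replicate 1, 7 and 1 without aged replicate 3, 2 and 0 without young replicate 1, and 6 and 3 without young replicate 3. Lower calls numbered 8 after quantile normalization once more or median centring, 12 with the filter, 11 with a variance trend, 16 with the neuronal mean and 1 with the oligodendrocyte mean as a covariate, for causes not tested. With the replicate block they numbered 1. The labels do not state that the shared numbers pair the mice. Deviations of same-numbered arrays correlated at -0.023, 0.154 and -0.05, and aged replicate 1 correlated best with young replicate 3 (0.154). So few and weak correlations cannot show whether the mice were paired. With 3 arrays a group, a difference must be large against the spread of a member to pass.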
